A study of Mus musculus with 3 samples.

Results

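The nuclear genes of oxidative phosphorylation were followed through fusion of the mouse palate. They were picked by symbol: every probe set naming a single gene whose symbol begins with Nduf, Uqcr or Atp5, the *Cox4* to *Cox8* genes with their letters, *Sdha* to *Sdhd*, and *Cycs*. The rule took 183 of 34945 probe sets that name 1 gene, and these stand for 91 of 18193 genes. For a gene with several probe sets, the one with the highest mean over the 3 arrays was taken. Of the 91 genes, 42 belong to complex I, 4 to complex II, 8 to complex III, 19 to complex IV and 17 to ATP synthase, and *Cycs* encodes cytochrome c. Of the 42 genes of complex I, 6 encode core subunits, 28 encode accessory subunits and 8 (*Ndufaf1* to *Ndufaf8*) encode assembly factors, which share the prefix without being part of the finished complex. Among the 19 genes of complex IV, 8 are isoforms that are used mainly in certain tissues or conditions. The rule used names alone and no signal, although the genes were chosen with earlier results of these data known.

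The tissue came from ICR mouse fetuses at embryonic day 14, labelled female and given no other treatment or mutation. The upper jaw was cultured in suspension in BGJb medium, in bottles flushed with a gas of mostly oxygen and some carbon dioxide. RNA of the palate was hybridized to 3 Affymetrix mouse genome arrays, 1 at each stage: before fusion after 5 h of culture, during fusion at 24 h, and after fusion at 60 h. The study's methods place the dissected piece at the shelf edge before fusion and in the median tissue during and after it, describe several samples per stage, and do not say whether RNAs were pooled for an array. Stage, hours in culture and dissected piece change together and cannot be told apart. A stage has 1 array and hence no replicate, which leaves no room for a test, and every ratio describes these 3 arrays only. The tissue is a mixture, in which fewer cells of a type and less RNA per cell cannot be told apart.

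Oxidative phosphorylation is the way in which mitochondria turn the oxidation of food into ATP. Complexes I and II take electrons from NADH and succinate, complex III passes them to cytochrome c, complex IV hands them to oxygen, and the protons pumped on the way drive ATP synthase. Nearly every cell uses the same subunits, but several subunits of complex IV exist as isoforms for heart, muscle, testis or low oxygen. Subunits encoded by mitochondrial DNA were not analysed here.

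The upstream sequence of 4 genes is shown because these genes hold both ends of the results below. *Cox6a1* and *Cox6b1* are subunits of complex IV in most tissues whose signals stayed within 1.5-fold, *Cox6b2* is the testis isoform of *Cox6b1*, and *Ndufaf3* is an assembly factor of complex I. Each line gives the 250 bases before the annotated start on the minus strand of RefSeq GRCm38.p6, 5′ to 3′, at chr5:115348959-115349208 (*Cox6a1*), chr7:30626115-30626364 (*Cox6b1*), chr7:4753095-4753344 (*Cox6b2*) and chr9:108567437-108567686 (*Ndufaf3*). Capitals mark the motif GCGCANGCG of NRF1, a regulator of respiratory chain genes, and the ETS core CCGGAAG, which the GABP factor (also called NRF2) reads, on either strand.
Cox6a1: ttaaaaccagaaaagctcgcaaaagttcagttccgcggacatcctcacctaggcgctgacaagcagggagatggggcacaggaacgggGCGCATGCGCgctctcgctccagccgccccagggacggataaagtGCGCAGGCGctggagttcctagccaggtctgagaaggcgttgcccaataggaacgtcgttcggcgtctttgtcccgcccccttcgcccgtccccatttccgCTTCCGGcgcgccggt
Cox6b1: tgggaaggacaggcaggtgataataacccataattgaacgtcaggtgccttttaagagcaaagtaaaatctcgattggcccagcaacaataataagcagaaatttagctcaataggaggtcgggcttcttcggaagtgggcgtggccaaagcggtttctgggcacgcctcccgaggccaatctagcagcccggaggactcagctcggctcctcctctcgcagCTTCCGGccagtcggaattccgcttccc
Cox6b2: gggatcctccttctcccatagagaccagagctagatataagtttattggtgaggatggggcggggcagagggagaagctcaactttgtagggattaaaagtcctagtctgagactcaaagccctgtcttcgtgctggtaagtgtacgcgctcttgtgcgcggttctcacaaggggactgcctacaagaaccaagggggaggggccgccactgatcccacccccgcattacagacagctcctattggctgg
Ndufaf3: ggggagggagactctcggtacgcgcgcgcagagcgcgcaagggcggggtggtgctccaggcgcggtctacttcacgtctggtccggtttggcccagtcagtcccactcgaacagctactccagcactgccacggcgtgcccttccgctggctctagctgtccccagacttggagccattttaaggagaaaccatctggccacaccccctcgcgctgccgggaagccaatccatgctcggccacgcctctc
The *Cox6a1* window holds the NRF1 motif on both strands 162 and 161 bases before the start, where the overlapping copies give a run of capitals, again at 117 bases, and an ETS core at 16 bases. The *Cox6b1* window holds an ETS core 28 bases before the start. Neither motif, nor the YY1 core AAGATGGC, which was searched in the same way, occurs in the windows shown for *Cox6b2* and *Ndufaf3*. Of the 91 genes, 75 have a window in the table. The NRF1 motif occurs in 13 of the 75 (17.3%) and in 5.33% of all 27018 windows, and the ETS core occurs in 13 of the 75 (17.3%) and in 7.07% of all windows. Most of the 75 windows thus hold neither, among them those of *Ndufc1* and *Atp5j*, which are steady genes named below. The 4 windows shown therefore do not link a motif to a steady signal. The YY1 core occurs in 0 of the 75 and in 1.58% of all windows. All windows are 1 per gene, at its most upstream annotated start, and are not limited to the 18193 genes with a probe set. The median GC content was 57.6% for the windows of oxidative phosphorylation genes and 52% for all windows, and its part in these shares was not tested. A match of letters is a description and does not show binding.

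Signals were put on one scale by giving the arrays the same trimmed mean, with factors of 1.11 before, 0.918 during and 0.986 after fusion. The floor of each array, the 95th percentile of 80 probe sets of sensory receptors, was 19.4 before, 13.4 during and 14.8 after fusion. A signal under the floor was raised to it, and a ratio with 1 side under the floor is a bound ("at least"). Above the floor were 86 of the 91 genes before, 88 during and 87 after fusion. On all 3 arrays 85 genes lay above it, on 1 or 2 arrays *Ndufa4l2*, *Cox7c* and *Cox7a1*, and on none *Ndufb4*, *Cox7b2* and *Cox8b*. For *Ndufb4* this holds for the 1 probe set that names it alone, since its other probe sets also name near-identical copies and were not used. Ratios could be formed for 88 genes in each comparison.

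Most oxidative phosphorylation genes kept nearly the same signal through fusion. The median signal of the 91 genes was 1868 before, 2122 during and 1953 after fusion. During fusion 82 of the 88 genes (93.2%) lay within 1.5-fold of their signal before fusion, beside 74.0% of all 13202 genes with a ratio. After fusion 79 genes (89.8%) lay within 1.5-fold of the signal before, beside 54.4% of all 13577 genes. Between during and after fusion 79 genes (89.8%) lay within 1.5-fold, beside 67.2% of all 14178 genes. These genes gave bright probe sets, and bright probe sets vary less. Among genes with a mean signal over 500, 74 of oxidative phosphorylation and 2596 in all, the shares within 1.5-fold in the same order were 95.9% beside 84.4%, 93.2% beside 64.2% and 95.9% beside 78.5%. Steadiness was not particular to these genes. During over before fusion 0 of 19 citric acid cycle and pyruvate dehydrogenase genes and 0 of 20 mitochondrial import genes passed 1.5-fold. Of 76 mitochondrial ribosomal protein genes 1 was higher and 0 lower, and of 16 glycolysis genes 2 were higher and 4 lower. After over before fusion the same lists in this order had 2, 0, 4 and 3 genes higher and 1, 3, 10 and 2 lower.

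**Figure D1:**
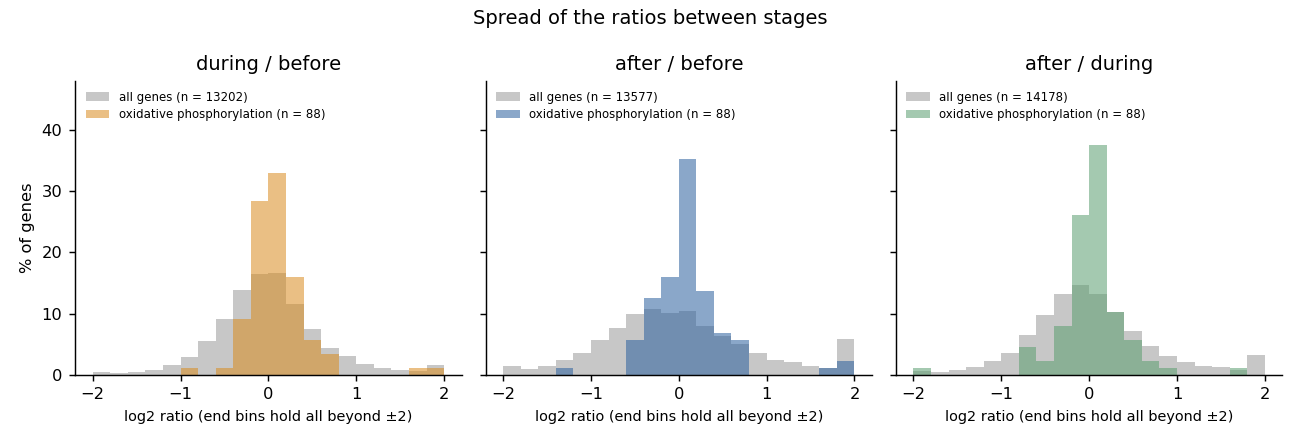
Histograms of the log2 ratio of scaled signals in the 3 comparisons, as a percentage of genes per bin, for all genes (grey) and for 88 oxidative phosphorylation genes (coloured), with all values beyond ±2 in the end bins. The coloured bars crowd around 0, where 93.2%, 89.8% and 89.8% of these genes lay within 1.5-fold, while the grey bars spread wider.

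The highest of a gene's 3 signals divided by the lowest gives its range over the stages. For the 85 genes above the floor on all arrays this range had a median of 1.21-fold, beside 1.54-fold for all 11828 such genes. With a mean signal over 500 it was 1.18-fold for 74 oxidative phosphorylation genes and 1.41-fold for 2585 genes in all. The steadiest included *Ndufc1*, an accessory subunit of complex I, at 2511 before, 2501 during and 2522 after fusion, and *Atp5j* of the stalk of ATP synthase at 3196, 3210 and 3257. *Ndufv2*, a core subunit of complex I with an iron-sulfur cluster, was level at 2808, 2839 and 2825 on its brightest probe set. Its other probe sets were less so, at 1533, 1963 and 1320 and at 1698, 1848 and 1573, so the steadiness of *Ndufv2* rests on the probe set taken. The only spread that the files allow is that between probe sets of the same gene. Its SD of the log2 ratio was 0.26, 0.23 and 0.27 in the 3 comparisons over the oxidative phosphorylation genes with several probe sets. These probe sets are read on the same arrays, so the SD holds no variation between arrays, dissections or fetuses.

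Past 2-fold, oxidative phosphorylation genes were few. During fusion 2 of 88 were over 2-fold higher than before (*Cox6b2* and *Ndufa4l2*), where 5.74% of all genes were, and 0 were over 2-fold lower, where 3.36% of all genes were. After fusion 3 were over 2-fold higher than before (*Cox6b2*, *Ndufaf3* and *Ndufa4l2*) against a background of 12.9%, and *Cox7c* alone was over 2-fold lower against 9.86%. Between during and after fusion *Ndufaf3* alone was over 2-fold higher against 8.83%, and *Cox7c* alone over 2-fold lower against 5.13%. At 1.5-fold, 5 genes were higher (background 13.7%) and 1 was lower (12.3%) during than before fusion. On the array after fusion 8 were higher than before fusion (21.8%) and 1 was lower (23.8%), and against the array during fusion 4 were higher (17%) and 5 were lower (15.8%). In each of these counts the share of oxidative phosphorylation genes, at most 9.09%, was below that of all genes.

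The 88 genes had a median log2 ratio of 0.03 during and 0.04 after fusion against the array before it, and of 0.05 between the later arrays, and its sign turned with the scaling, over ranges of -0.24 to 0.31, -0.33 to 0.22 and -0.10 to 0.20 under the other 6 scalings tried. The medians of all genes were -0.02, -0.08 and -0.04. The direction of a small ratio depends in the same way on how the arrays are scaled. The sign was the same under every scaling for 22 of 88 genes during over before (15 higher, 7 lower), for 33 after over before (14 higher, 19 lower) and for 41 after over during fusion (23 higher, 18 lower). The same counts were not made over all genes, so they do not tell these genes from others on the arrays. Scaling by a factor shifts all genes by the same amount, whereas quantile and lowess normalization do not. Where a gene is called highest or lowest at a stage, this holds for the trimmed-mean scaling.

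**Figure D2:**
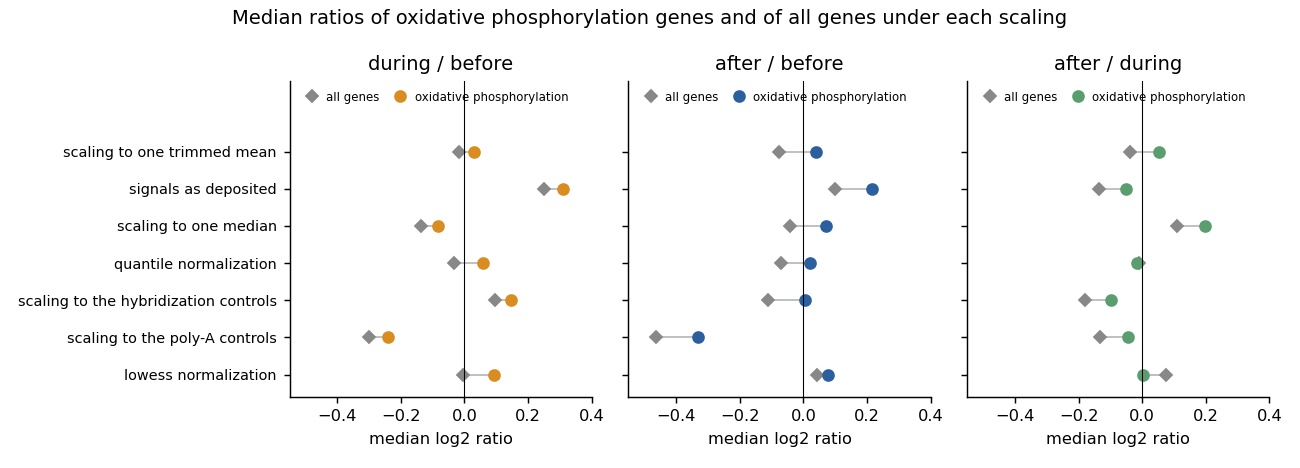
Median log2 ratio of all genes (grey diamonds) and of 88 oxidative phosphorylation genes (coloured circles) under 7 ways of scaling the arrays, 1 panel per comparison. Both medians move together and cross 0, with the circles between -0.24 and 0.31 for during over before fusion, and the circle stays to the right of the diamond except in after over during fusion with quantile and lowess normalization.

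Complex I, the entry point for electrons from NADH, was described first by its core subunits. *Ndufs3* gave 1591 before fusion, 1280 during it and 1361 after it. *Ndufs8*, which carries iron-sulfur clusters near the quinone site, had 2871, 2326 and 2459, and *Ndufv1*, which binds NADH and flavin, had 1634, 1338 and 1411. All 3 were highest before fusion, with log2 ratios of -0.31, -0.30 and -0.29 during and -0.22, -0.22 and -0.21 after fusion, and were lower under each of the 6 other scalings, although the differences are near the spread between probe sets. For *Ndufs8* another bright probe set read 2206, 2287 and 2412 and was not highest before fusion, so its probe sets disagree. *Ndufs1*, the largest iron-sulfur subunit, had 640 before fusion, 569 during it and 504 after it, which is -0.34 on the log2 scale from the first to the last. *Ndufs7*, which holds the last iron-sulfur cluster before the quinone, had 1174, 1181 and 1655, with a log2 ratio of 0.49 after over before fusion. The core subunits thus did not share a direction. After fusion 4 of 6 were below and 2 of 6 above their signal before fusion, but of these 2 *Ndufv2* was level (log2 ratio 0.01). The median of the 6 was -0.22 (from -0.59 to -0.04 under the other scalings).

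Among the 28 accessory subunits of complex I, 27 with a ratio, none passed 2-fold in any comparison. The highest after over before fusion was *Ndufs5*, a small subunit on the intermembrane side, at 739 before, 1086 during and 1274 after fusion. *Ndufs5* has a pseudogene copy in the annotation, so its value is less certain. *Ndufa6*, a subunit of the LYR family, followed at 1195, 1732 and 1873. Their ratios after over before fusion were 1.72 and 1.57, and most of the difference was present during fusion already (1.47 and 1.45). *Ndufv3*, at the NADH end of the complex, had 1317, 948 and 1036, 1.39-fold lower during than before fusion. *Ndufa12* was lowest during fusion with 1868, 1509 and 2135, but another bright probe set was lowest after fusion with 1857, 1757 and 1531, so its probe sets disagree. *Ndufb6* was highest during fusion with 1699, 2384 and 1502. *Ndufa5* had 1054 before, 1254 during and 734 after fusion, 1.71-fold lower after than during. Its second probe set, at 470, 521 and 211, gave log2 ratios of -1.16 after over before and -1.31 after over during fusion, where the brighter probe set gave -0.52 and -0.77. Both probe sets of *Ndufa5* were lowest after fusion and they differ in size. *Ndufb7* had 2152, 2115 and 1520, and *Ndufb1*, a dim probe set, had 86.0, 96.6 and 58.7, so both were lowest after fusion. The 27 genes had a median log2 ratio of 0.05 during and 0.04 after over before fusion, beside -0.02 and -0.08 for all genes.

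The 8 assembly factors of complex I help to build it and are not part of it. *Ndufaf3*, which acts early in assembly together with *Ndufaf4*, stood at 359 before fusion, at 609 during it and at 2033 after it. It was 1.70-fold higher during than before fusion, 5.67-fold higher after than before and 3.34-fold higher after than during fusion, and it was higher in each later array. *Ndufaf3* has 1 probe set, so no second probe set bears on these values. Its partner *Ndufaf4* had 268, 335 and 217, and was 1.54-fold lower after than during fusion. *Ndufaf6* had 158, 161 and 254, a ratio of 1.61 after over before fusion. *Ndufaf1*, a factor for the membrane arm, had 351, 365 and 252, and *Ndufaf2*, a paralog of *Ndufa12* that takes its place during assembly, had 234, 212 and 166. After fusion 3 of the 8 assembly factors were above and 5 below their signal before fusion, so the high value of *Ndufaf3* was not shared by the list, whose median log2 ratio was -0.07.

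**Figure D3:**
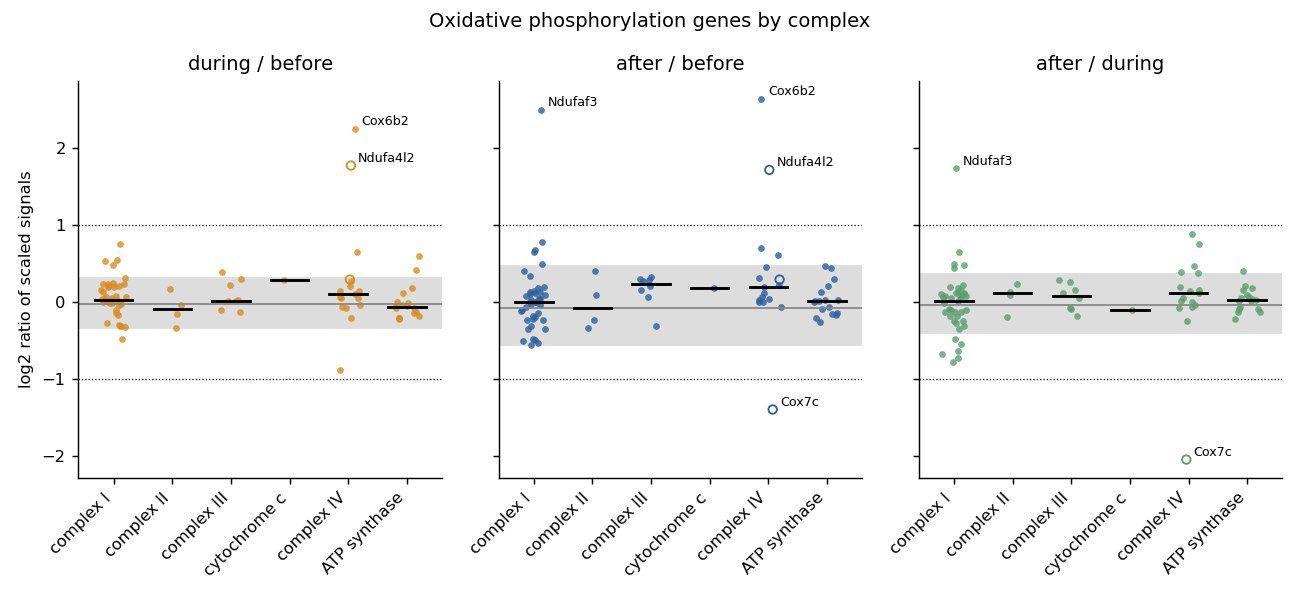
Log2 ratio of scaled signals for each oxidative phosphorylation gene (points, with bounds as open circles) by complex, in the 3 comparisons; black bars are medians of a complex, the grey line and band the median and quartiles of all genes, and dotted lines mark 2-fold. Most points lie inside the band, and the named genes *Cox6b2*, *Ndufa4l2*, *Ndufaf3* and *Cox7c* lie past 2-fold.

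Complex II, which is also an enzyme of the citric acid cycle, split by subunit on the brightest probe sets. Its catalytic subunits were highest before fusion: the flavoprotein gene *Sdha* had 1201 before, 952 during and 1021 after fusion. The iron-sulfur gene *Sdhb* had 2347, 2122 and 1858. Its membrane anchors were highest after fusion, with 1800, 1752 and 1918 for *Sdhc* and 728, 819 and 965 for *Sdhd*. After over before fusion the log2 ratios were -0.24 and -0.34 for *Sdha* and *Sdhb* and 0.09 and 0.41 for *Sdhc* and *Sdhd*, all under 1.5-fold. A second probe set of *Sdhc*, of a type designed with a risk of cross-hybridization, had 747, 361 and 435. Its log2 ratios were -1.05 during and -0.78 after over before fusion, where the brighter one gave -0.04 and 0.09. The 2 probe sets of *Sdhc* therefore disagree. A second, dimmer probe set of *Sdhd* had 97.9, 172 and 165, highest during fusion, with 0.76 after over before. Under the other scalings the median after over before fusion ran from -0.65 to -0.11 for the catalytic subunits. That of the membrane anchors ran from -0.12 to 0.43 and so crossed 0.

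Complex III and cytochrome c pass the electrons on. *Uqcrfs1*, the Rieske iron-sulfur subunit, had 1834 before fusion, 2139 during it and 2217 after it. The core subunits *Uqcrc1* and *Uqcrc2* went apart, with 2379, 2175 and 1923 for the first and 2150, 2167 and 2656 for the second. *Cycs* had 2571, 3135 and 2932, a ratio of 1.22 during over before fusion. Its log2 ratio after over before fusion was 0.19, and 2 other probe sets of *Cycs* gave -0.02 and -0.50, so they disagree on that comparison. After over before fusion 7 of the 8 genes of complex III lay above 0 and 0 of them beyond 1.5-fold, and their median log2 ratio of 0.24 (from -0.12 to 0.42 under the other scalings) stood beside -0.08 for all genes.

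ATP synthase, the enzyme that makes the ATP, had all 17 genes within 1.5-fold after over before fusion. The catalytic subunit genes *Atp5a1* and *Atp5b* had 5246, 4635 and 4775, and 5897, 5339 and 5971. The genes *Atp5g1*, *Atp5g2* and *Atp5g3* encode the same mature c subunit of the rotor. *Atp5g1* had 1423, 1358 and 1457, *Atp5g2* had 3461, 3019 and 4006, and *Atp5g3* had 6687, 5833 and 6731, so all 3 were lowest during fusion and their log2 ratios after over before lay between 0.01 and 0.21. *Atp5md*, a small membrane subunit, was the only gene of this complex past 1.5-fold, at 624 before, 946 during and 866 after fusion (1.52 during over before). The median log2 ratio of the 17 genes was -0.06 during and 0.01 after over before fusion, with ranges of -0.33 to 0.22 and -0.36 to 0.19 under the other scalings.

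Complex IV, which reduces oxygen, held 3 of the 4 genes past 2-fold, and 2 of these 3 were isoforms. The subunits used in most tissues were mostly level: *Cox4i1* had 6685 before, 6978 during and 7281 after fusion. *Cox6a1* had 8337, 7253 and 8338, and *Cox6b1* had 5546, 5836 and 6367. *Cox7a2* had 5447, 6025 and 6763, and *Cox8a* 2234, 2471 and 3417, which was 1.53-fold higher after than before fusion. *Cox7a2l*, which helps to join complexes III and IV, had 2840, 2961 and 3890, a ratio of 1.37 after over before fusion.

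*Cox6b2*, the testis isoform of the subunit that links the partners in the complex IV dimer, stood at 210 before fusion, at 1002 during it and at 1306 after it. It was 4.77-fold higher during and 6.23-fold higher after than before fusion, and 1.30-fold higher after than during fusion. The array before fusion stands apart and the later arrays lie close together. Its paralog *Cox6b1* differed by 1.05-fold and 1.15-fold in the same comparisons. Under the other scalings the log2 ratio of *Cox6b2* lay between 1.99 and 2.54 during and between 2.27 and 2.82 after over before fusion. *Ndufa4l2*, a paralog of *Ndufa4* that low oxygen induces, was under the floor before fusion with a signal of 7.36, and had 66.6 during and 64.0 after fusion. Against the floor before fusion this is at least 3.42-fold higher during fusion, and at least 3.29-fold higher after it, and the later arrays did not differ beyond the spread between probe sets (log2 ratio -0.06). *Ndufa4*, once counted to complex I, had 2069, 2506 and 2115. *Cox6b2* and *Ndufa4l2* have 1 probe set each, and both were high on the same arrays.

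The other isoforms were dim. *Cox4i2*, the isoform of lung and low oxygen, had 30.3 before, 29.2 during and 49.3 after fusion, 1.63-fold higher after than before. *Cox6a2*, of heart and muscle, had 44.5, 24.2 and 44.5, and *Cox7a1*, of the same tissues, had 18.9, 23.9 and 23.9, where the first value is under the floor. *Cox8b*, also of heart and muscle, lay at 1.23, 1.38 and 1.09, under the floor throughout. Of the testis isoforms other than *Cox6b2*, *Cox8c* was level at 85.0, 83.1 and 81.5 and *Cox7b2* was under the floor on each array at 10.9, 4.32 and 4.04. A second, dimmer probe set of *Cox8c* had 3.90, 20.8 and 18.3, under the floor before fusion and above it on the later arrays. Signals so dim do not tell whether the other testis isoforms went with *Cox6b2*. Only 1 gene of the usual subunits passed 2-fold. *Cox7c* had 38.7 before, 60.7 during and 11.0 after fusion, the last under the floor, and was at least 2.62-fold lower after than before and at least 4.11-fold lower after than during fusion. Its second probe set was dim too, with 18.7, 34.1 and 7.50, and both were lowest after fusion. With so low a signal the value of *Cox7c* rests on the floor, and whether these dim probe sets measure its main transcript was not tested.

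**Figure D4:**
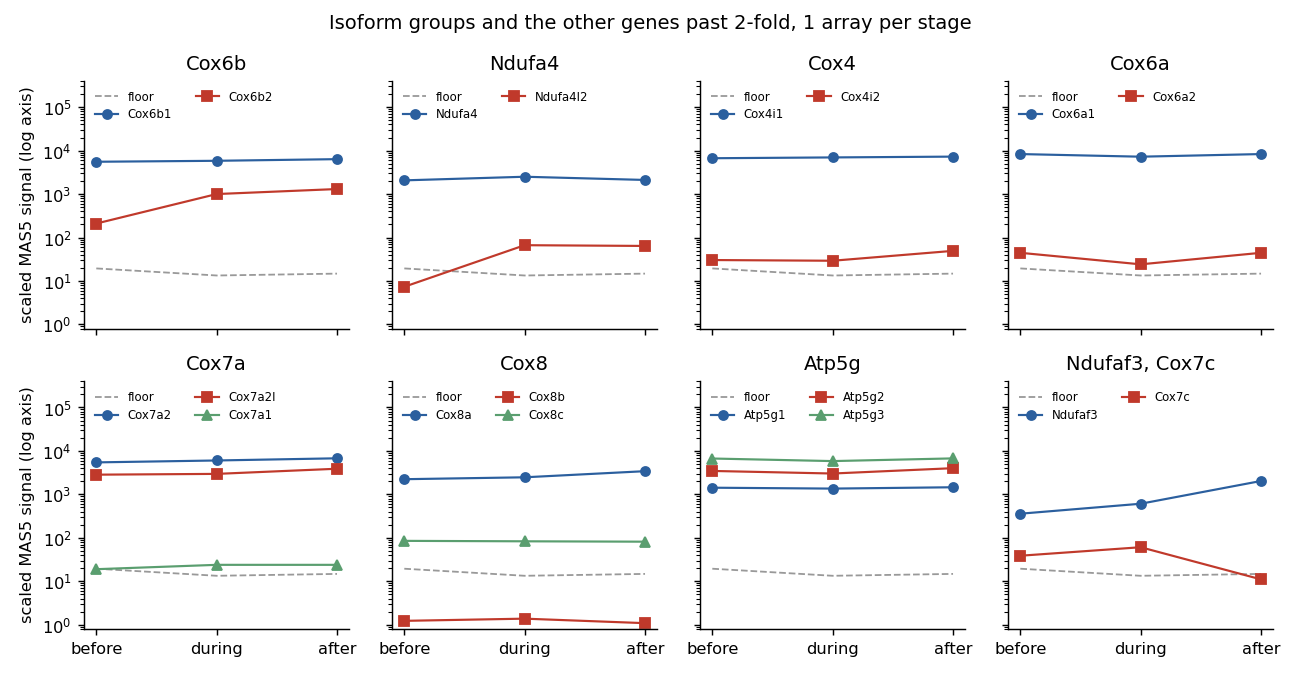
Scaled signal (log axis) on the 3 arrays, in the order before, during and after fusion, for the isoform groups of complex IV, for the *Atp5g* genes and for *Ndufaf3* and *Cox7c*; the dashed line is the floor of each array. *Cox6b2*, *Ndufa4l2* and *Ndufaf3* are higher on the later arrays while *Cox6b1* and *Ndufa4* stay within 1.5-fold, as do the other bright genes except *Cox8a* (1.53-fold higher after than before fusion); heights of different probe sets are not comparable.

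Markers of other cells in the tissue differed between the arrays as well. The summed signal of 12 skeletal muscle markers was 1436 before, 396 during and 215 after fusion, with 8, 7 and 5 of them above the floor. Muscle uses *Cox6a2*, *Cox7a1* and *Cox8b*, whose signals are given above. They were dim or under the floor and so do not tell whether these isoforms followed this order. The summed signal of 6 pan-epithelial markers was 8434, 15055 and 21706, that of 7 markers of ciliated epithelium 167, 2692 and 17299 with 4, 7 and 7 above the floor, and that of 8 macrophage markers 584, 1197 and 2622. Like *Cox6b2* and *Ndufaf3*, these sums were lowest before and highest after fusion. The summed signal of 6 markers of palatal mesenchyme was 7712, 4760 and 2617, and that of 5 erythroid markers 15271, 9891 and 1925 with 4, 4 and 3 above the floor. Of the 4 brown adipocyte markers, summing to 239, 193 and 362, the defining gene *Ucp1* was under the floor on each array at 0.892, 9.37 and 1.38. No marker had a deposited signal of 0. The part of these cells in the values of *Cox6b2*, *Ndufa4l2* and *Ndufaf3* was not tested.

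Genes with several probe sets allow a check within an array. Of the 92 other probe sets of these genes, 80 gave a ratio in at least 1 comparison, and they differed from the brightest probe set by a median of 0.16, 0.15 and 0.15 on the log2 scale in the 3 comparisons. In all, 9 of the 80 passed 2-fold in some comparison, and 7 of these 9 had a mean signal under 100. The share of all probe sets past 2-fold in some comparison was not counted, so whether 9 is few or many is not known. The 2 brighter ones were the second probe sets of *Ndufa5* and *Sdhc* described above.

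The rest of energy metabolism was described by lists chosen by function, beside the same background of 12.9% higher and 9.86% lower for after over before fusion. Of 19 genes of the citric acid cycle and pyruvate dehydrogenase, 1 was over 2-fold higher and 0 lower, and the list spanned log2 ratios from *Pdhx* (-0.64) and *Idh2* (-0.31) to *Dlat* (0.90) and *Idh3a* (1.08), with a median of 0.11. Of 16 glycolysis genes 1 was higher and 1 lower: the glucose transporter gene *Slc2a3* was lowest (-2.13), followed by *Pkm* (-0.89), and *Slc2a1* (0.74) and *Aldoc* (1.22) were highest. Of 35 assembly factors for the respiratory complexes other than those named Ndufaf, 2 were higher and 4 lower, from the copper chaperone gene *Sco1* (-1.31) and *Atpaf2* (-1.21) to *Sco2* (1.06) and *Coa6* (1.14). Of 15 regulators of mitochondrial biogenesis 0 were higher and 3 lower: *Tfb1m*, which methylates mitochondrial ribosomal RNA (-1.42), *Twnk*, the helicase of mitochondrial DNA (-1.15), and *Tfam*, which packs and transcribes that DNA (-1.01). At the other end stood *Ppargc1a* (0.99) and *Esrra* (0.86), regulators of oxidative genes in the nucleus. *Tfam* had signals of 608 before, 500 during and 302 after fusion, and *Ppargc1a* had 137, 114 and 273.

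Of 76 mitochondrial ribosomal protein genes 2 were higher and 0 lower, from *Mrps11* (-0.97) and *Mrpl41* (-0.95) to *Mrpl39* (1.04) and *Mrpl24* (1.13), and their median log2 ratio was -0.20 beside 0.04 for the 88 oxidative phosphorylation genes. Of 20 genes of mitochondrial import 0 were higher and 1 lower, from *Timm22* (-1.01) and *Tomm70a* (-0.73) to *Timm17a* (0.34) and *Tomm7* (0.39). Of 14 genes of fatty acid oxidation 0 passed 2-fold, from *Slc25a20* (-0.90) and *Etfb* (-0.81) to *Etfa* (0.44) and *Acadl* (0.87). The lists of mitochondrial import and fatty acid oxidation thus held 1 gene past 2-fold between them. Of 7 carriers, porins and uncoupling proteins 0 passed 2-fold, from *Vdac3* (-0.43) and *Slc25a4* (-0.39) to *Ucp3* (0.48, a bound) and *Vdac2* (0.58). Of 7 mitochondrial antioxidant genes 2 were higher and 0 lower, from *Txnrd2* (-0.98) and *Glrx2* (-0.63) to *Gsr* (1.24) and *Sod2*, the superoxide dismutase of mitochondria (1.54). Of 47 cytosolic ribosomal protein genes 1 was higher and 1 lower, from *Rps4l* (-1.63) and *Rpl12* (-0.92) to *Rps27l* (0.81) and *Rpl39l* (1.34).

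**Figure D5:**
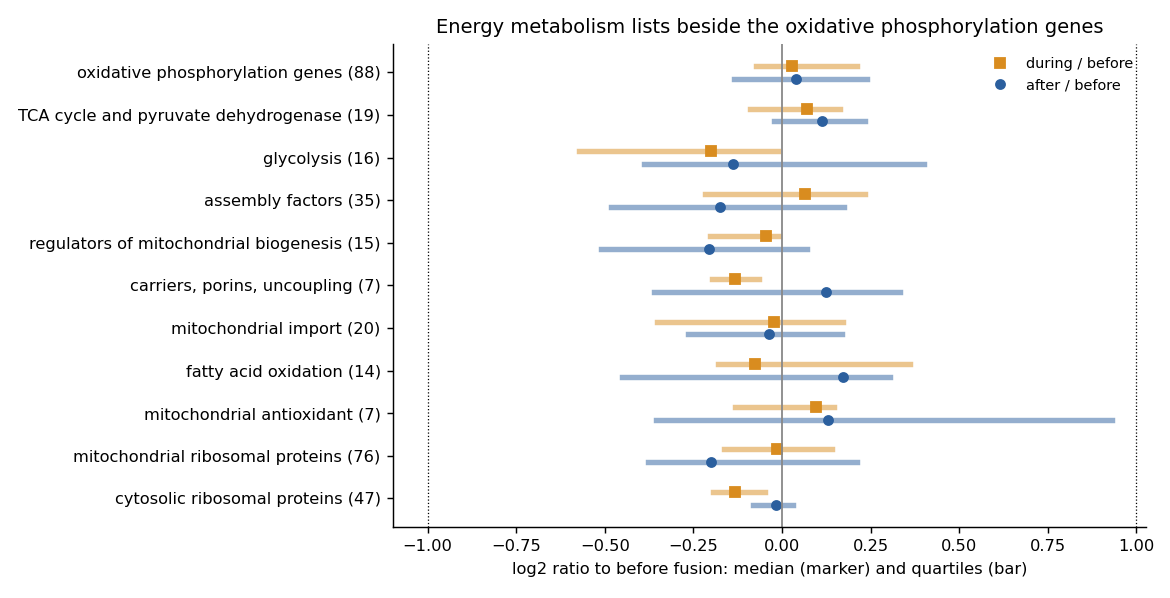
For each list a marker gives the median log2 ratio to the array before fusion and a bar its quartiles, for oxidative phosphorylation genes and 10 other lists, during (orange squares) and after fusion (blue circles), with the number of genes that have a ratio after over before fusion; dotted lines mark 2-fold. All medians lie between -0.21 and 0.17, and the longest bars belong to glycolysis and to the mitochondrial antioxidant genes. Under the other scalings the median after over before fusion stayed below 0 for mitochondrial ribosomal proteins (-0.57 to -0.02) and regulators of mitochondrial biogenesis (-0.57 to -0.03). The medians of oxidative phosphorylation and of the remaining lists crossed 0.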

How the data were processed

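The deposited values are signal intensities on a linear scale, 1 per probe set, which the authors computed from the scanned arrays with the MAS5 algorithm (its version is not given in the sources used here) with background correction. The labels name a column kit for the RNA and the study's methods name Trizol. Of 45101 probe sets, 64 are controls; of the other 45037, 34945 name 1 gene, 932 several and 9160 none in the platform annotation, and 34741 were matched by gene ID to the gene table of GRCm38.p6, which changed no symbol. The 10 probe sets that name an oxidative phosphorylation gene together with another gene were not used, and genes without a probe set of their own were not analysed here.

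The deposited trimmed means, without the 2% at either end, were 123.6, 150.0 and 139.7, and each array was multiplied to make them equal. Signals were compared as log2 ratios, with no ratio where both were under the floor, and counted past 2-fold and 1.5-fold. Genes named were the 6 largest and 6 smallest ratios of each comparison, all past 2-fold, the isoform groups, core and catalytic subunits, and the 2 highest and 2 lowest genes of each other list. All 4 genes of complex II and *Cycs* were named too. Others, among them the steady examples and *Ndufa6*, were added after their values were seen. The genes and lists were chosen with earlier results of these data known. With 1 array per stage, the number of arrays limits the precision. The steps were tested on simulated data. Python 3.11.15, numpy 2.4.6, pandas 2.3.3, statsmodels 0.14.6 and matplotlib 3.10.9 were used.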

Additional observations from a re-analysis of the deposited data

How the results depend on the processing

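With 1 array per stage, the alternatives below say how a value depends on the handling of 3 arrays and nothing about differences between fetuses. No paired analysis was possible because each stage has 1 array. Against scaling to one trimmed mean, the median of all genes moved by 0.27 (during over before) and 0.18 (after over before) with the deposited signals, by -0.28 and -0.39 with the poly-A controls, by -0.12 and 0.03 with one median, and by 0.11 and -0.04 with the hybridization controls. The median of the oxidative phosphorylation genes moved with it, to 0.31 during over before fusion with the deposited signals (0.31 with no floor as well), and to -0.24 during and -0.33 after over before fusion with the poly-A controls. Taken relative to all genes, the median stayed between 0.03 and 0.10 for during over before and between 0.03 and 0.14 for after over before fusion, and lay between -0.07 and 0.10 for after over during fusion, below 0 with lowess (-0.07) and quantile normalization (-0.01). The number over 2-fold higher during over before fusion (2) became 5 with each probe set by itself or a 1.5-fold threshold, 0 without tissue-restricted isoforms and 1 with a mean signal over 100. The number higher after over before fusion (3) became 1 without those isoforms and 8 at 1.5-fold. The number higher after over during fusion (1) became 2 with one median, with no floor or with deposited signals and no floor, 3 with lowess, 0 without assembly factors and 4 at 1.5-fold. The number lower during over before fusion (0) became 1 with quantile normalization, the poly-A controls, each probe set or 1.5-fold, and 2 with no floor, scaled or as deposited. The number lower after over before fusion (1) became 2 with no floor, scaled or as deposited, or with probe sets not marked as shared, 3 with each probe set, and 0 with the floor at each array's median or a mean signal over 100. The number lower after over during fusion (1) became 2 with the median over probe sets, 8 with each probe set, 5 with probe sets not marked as shared or at 1.5-fold, and 0 with a mean signal over 100. The causes were not tested, beyond what each alternative leaves out or adds by construction. *Cox6b2*, *Ndufa4l2* and *Ndufaf3* stayed past 2-fold, in the comparisons named for them, under each alternative that gave them a value. *Cox7c* stayed past 2-fold after over before fusion under 13 of 14 alternatives and was at -0.53 on the log2 scale with the floor at each array's median. Symbols as the platform table gives them left each value as it was. Alternatives chosen after seeing the data were a mean signal over 100 and deposited signals with no floor. Depth, here the signal over the floor, limits *Ndufa4l2*, *Cox7c* and the dim isoforms most.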
